A study of Homo sapiens with 95 samples.

Results

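The response of PIK3CA cells to benzo[a]pyrene (BaP) was measured in 6 wells, 3 exposed to BaP and 3 to the DMSO vehicle, out of the 95 wells of the series. The wells were taken by their titles. All of them held AALE cells, a bronchial epithelial line of human origin that was immortalized, made to overexpress PIK3CA, the catalytic subunit of the PI3-kinase that makes a membrane lipid signal. BaP was given at 173 µM. Expression was read by 3′ digital gene expression (3′DGE), in which each captured polyadenylated molecule carries a well barcode and a unique molecular identifier (UMI) and only the 3′ end is sequenced. The series holds 8 such populations under 4 chemicals. Further PIK3CA wells were used for comparison, 3 with cigarette smoke condensate (CSC) at 24 µg/ml and 3 with the tobacco nitrosamine NNK at 490 µM. So were the BaP and DMSO wells, 3 of each per population, of AALE cells overexpressing NRF2 (gene NFE2L2) or NRG1, of FAT1 CRISPR knockout cells, and of cells with a Cas9-EGFP plasmid but no guide RNA (GFP). Cells with the HcRed reporter vector were the control for overexpression. The exposure time, and whether a population grew from 1 clone, were not given in the sources used here.

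BaP is a polycyclic aromatic hydrocarbon of tobacco smoke and soot. It binds the aryl hydrocarbon receptor (AHR), which moves to the nucleus, pairs with ARNT and switches on genes through a short DNA element whose core reads GCGTG. Among these genes are CYP1A1 and CYP1B1, the cytochrome P450 enzymes that oxidize BaP into reactive products, and TIPARP and AHRR, which feed back on the receptor. Quinone and thiol stress from such products is met by NRF2, the factor that drives thioredoxin, ferritin and NQO1 genes through antioxidant response elements.

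The 6 wells held 1251909 to 1509498 UMIs each, and 11950 to 12284 of the 23895 listed genes had a count, so a gene at 1 UMI in a well is a level near 1 CPM (UMIs relative to the scaled total of the well, scaled here by TMM factors over the 12 PIK3CA wells). In counts per DMSO well, PIK3CA had 9, 25 and 17 in PIK3CA cells and 5, 2 and 1 in HcRed cells, a log2 fold change of 2.47 (SE 0.57, limma-voom adjusted p = 0.00211). Its labels do not say whether the construct carries the 3′ end of the gene. Under BaP the counts of PIK3CA were 11, 8 and 9, a log2 fold change against DMSO of -0.56 (SE 0.36, limma-voom adjusted p = 0.662). The basal epithelial markers KRT5, KRT14, KRT17, TP63 and ITGA6 were all detected, with a summed level of 338 to 443 CPM in the DMSO wells and 337 to 360.3 CPM in the BaP wells. The leukocyte markers PTPRC, CD3E and CD79A, the endothelial markers VWF and CDH5 and the fibroblast markers COL1A2, COL3A1, PDGFRA and PDGFRB were at 0 in all 6 wells. Other members of these lists were detected, led by CD68 at up to 31.02 CPM and DCN at up to 10.2 CPM. The summed leukocyte markers were at 21.7 to 29.5 CPM under DMSO and 29.7 to 36.2 CPM under BaP, the fibroblast markers at 5.77 to 11.2 CPM and 2.95 to 11.8 CPM, and none of these markers passed the test. Their part in the results was not tested. The BaP and DMSO wells lay in plate rows E and A, and their barcodes held 5 and 1 G or C bases, so that BaP, plate row and barcode composition cannot be told apart.

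At an adjusted p threshold of 0.05, 130 of 11126 genes differed between BaP and DMSO in PIK3CA cells, or 1.17% of those tested, and 1059 (9.52%) had an unadjusted p under 0.05. Of the 130, 96 were higher under BaP (0.863%) and 34 lower (0.306%). Most changes were small. The median log2 fold change was 0.30 among the higher genes and -0.46 among the lower genes, and 62 of the 96 and 21 of the 34 changed by less than 0.5 on the log2 scale. Of the 96 higher genes 9 passed a log2 fold change of 1, led by CYP1B1 and CYP1A1, and of the 34 lower genes 3 did. The called genes were mostly high in UMIs: the higher ones had a median DMSO level of 492 CPM and the lower ones of 293 CPM, against 7.91 CPM over all genes tested. The BaP and DMSO wells did not overlap for 92 of the 96 and 31 of the 34, beside 8.06% of all tested genes with every BaP well above and 6.99% with every BaP well below every DMSO well. Without TMM factors, on library totals alone, the split was 74 higher and 68 lower. In wells of bulk RNA a lower level from fewer cells of one state and from less RNA per cell cannot be told apart.

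**Figure D1:**
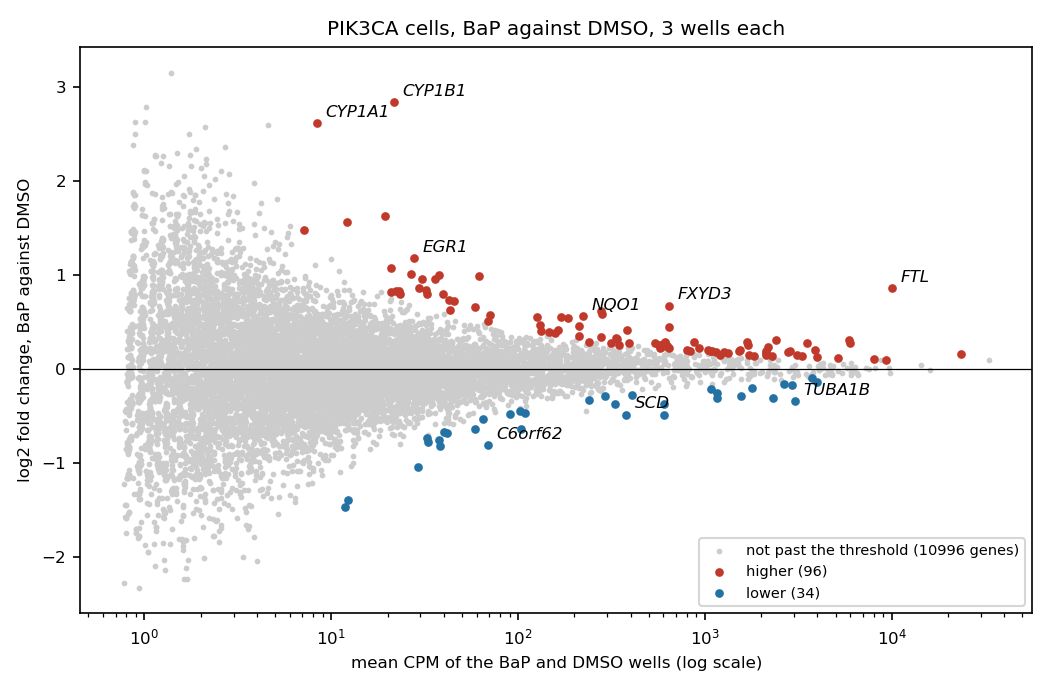
Each point is a gene tested in PIK3CA cells, with its mean level in the 3 BaP and 3 DMSO wells on the x axis (CPM, log scale) and its log2 fold change of BaP against DMSO on the y axis. The 96 higher genes are red and the 34 lower genes blue. CYP1A1 and CYP1B1 stand above a log2 fold change of 2, while FTL, among the most abundant genes on the x axis, stands above its neighbours.

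CYP1A1 (chromosome 15, 75011883 to 75017877, minus strand, hg19) and CYP1B1 (chromosome 2, 38294116 to 38337044, minus strand, hg19) had the largest fold changes among the genes called. CYP1A1 stood at 3.2, 2.63 and 0.753 CPM in DMSO replicates 1 to 3 and at 14.8, 10.7 and 18.1 CPM in BaP replicates 1 to 3. The lowest BaP well was above the highest DMSO well, although the counts behind these levels were only 1 to 5 under DMSO and 14 to 23 under BaP. The log2 fold change was 2.62 (SE 0.49, limma-voom adjusted p = 0.0011), a 6.14-fold rise. CYP1B1 stood at 3.2, 3.94 and 9.79 CPM under DMSO and at 33.2, 32.7 and 47.2 CPM under BaP. DMSO replicate 3 was the highest of its group, and all 3 BaP wells were more than 3 times that level. The log2 fold change was 2.84 (SE 0.33, limma-voom adjusted p = 3.05e-07), a 7.17-fold rise. Both calls were kept when any 1 of the 6 wells was left out.

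TIPARP (chromosome 3, 156391024 to 156424559, plus strand, hg19), a mono-ADP-ribosyltransferase that represses AHR, stood at 14.7, 17.7 and 15.1 CPM under DMSO and at 25.1, 31.2 and 29.9 CPM under BaP. The wells did not overlap, and the log2 fold change was 0.84 (SE 0.21, limma-voom adjusted p = 0.0335). This call was lost without DMSO replicate 1 or 3 or BaP replicate 2 or 3, with adjusted p up to 0.182. NQO1 (chromosome 16, 69740899 to 69760571, minus strand, hg19), a quinone reductase served by both AHR and NRF2, stood at 183, 172 and 182 CPM under DMSO and at 279.9, 259 and 256 CPM under BaP. All BaP wells were above all DMSO wells, with a log2 fold change of 0.56 (SE 0.08, limma-voom adjusted p = 1e-05).

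Of the 13 listed AHR battery genes 9 were tested. These 4 rose and none fell, beside 0.863% called higher over all genes tested. The median log2 fold change of the 9 was 0.56, beside 0.00 for all genes tested. The receptor itself did not pass the test: AHR had 2.26 to 5.77 CPM under DMSO and 5.33 to 7.87 CPM under BaP (log2 fold change 0.53, SE 0.42, limma-voom adjusted p = 0.728). Its partner ARNT (0.56, SE 0.34) and the P450 gene CYP2S1 (-0.43, SE 0.61) did not pass either. PTGES3, the HSP90 co-chaperone p23, was at 174 to 184 CPM under DMSO and 140.0 to 164 CPM under BaP, without overlap, but did not pass (log2 fold change -0.23, SE 0.09, limma-voom adjusted p = 0.319). AHRR, the AHR repressor, had counts of 0, 0 and 0 under DMSO and 1, 2 and 1 under BaP, and a count of 0 allows up to 3 counts in a well. CYP1A2 (0, 1 and 3 against 0, 0 and 1) and ALDH3A1 (0, 1 and 0 against 0, 1 and 2) were as sparse, and UGT1A6, which shares its 3′ end with other UGT1A genes, was at 0 in all 6 wells.

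To show the letters around the start sites of genes that rose, the 250 bases before the start of CYP1A1, TIPARP and TXNRD1 are given 5′ to 3′ on the gene's strand, from RefSeq on GRCh38.p14. Capitals mark GCGTG or its reverse complement CACGC in the first 2 and TGACNNNGC, the letters of an antioxidant response element, in the third.
CYP1A1, chr15:74725529-74725778, minus strand: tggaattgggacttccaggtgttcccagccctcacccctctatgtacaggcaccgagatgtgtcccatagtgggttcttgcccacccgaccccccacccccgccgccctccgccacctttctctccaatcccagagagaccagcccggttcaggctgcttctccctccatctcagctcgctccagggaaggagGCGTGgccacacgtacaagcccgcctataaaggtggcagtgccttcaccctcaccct
TIPARP, chr3:156674340-156674589, plus strand: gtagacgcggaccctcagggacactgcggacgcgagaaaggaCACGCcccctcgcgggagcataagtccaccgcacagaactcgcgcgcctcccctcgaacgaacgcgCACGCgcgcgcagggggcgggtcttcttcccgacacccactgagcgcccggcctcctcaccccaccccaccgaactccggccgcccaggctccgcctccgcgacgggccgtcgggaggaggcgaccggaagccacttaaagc
TXNRD1, chr12:104215529-104215778, plus strand: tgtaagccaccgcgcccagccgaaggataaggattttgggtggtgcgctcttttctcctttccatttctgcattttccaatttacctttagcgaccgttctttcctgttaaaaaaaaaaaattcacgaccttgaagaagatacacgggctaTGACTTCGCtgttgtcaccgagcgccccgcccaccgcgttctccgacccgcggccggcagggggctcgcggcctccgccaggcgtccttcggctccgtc
The match of CYP1A1 began 57 bases before the start, those of TIPARP 208 and 142 bases before it, and that of TXNRD1 99 bases before it. The table holds 3 windows for TIPARP and 2 for TXNRD1, and the first of each is shown. Such letters are common. On either strand GCGTG was present in a window of 38 of the 77 higher genes found in the table (49.4%), of 13 of the 28 lower genes (46.4%) and of 36.2% of all genes in the table. TGACNNNGC was present for 22.1% of the higher genes, 32.1% of the lower genes and 13.2% of all genes. The table holds 27305 genes, not only the 11126 tested here, and the shares among tested genes alone were not computed. A gene counted if any of its windows held the letters, and the 77 higher genes had 114 windows, the 28 lower genes 51. By window the shares for higher, lower and all genes were 43.0%, 35.3% and 32.2% for GCGTG. For TGACNNNGC they were 16.7%, 19.6% and 10.9%. Neither set of letters was in any window of NQO1, EGR1, SQSTM1 or MGST1 or in the other 2 windows of TIPARP, and FTL and TXN held GCGTG but not TGACNNNGC. The longer letters TNGCGTG, with N any base, were in no window of CYP1A1 or TIPARP. They were present for 10.4% of the higher genes, 7.1% of the lower genes and 5.5% of all genes.

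NRF2 targets were the list with the most calls, although the share called was larger in the shorter AHR battery, at 4 of 9. Of 29 tested NRF2 targets and regulators 7 rose and none fell, with a median log2 fold change of 0.23, and 25 of the 29 were above 0. Over all genes tested 0.863% were called higher, 5564 of 11126 were above 0 and the median was 0.00. FTL (chromosome 19, 49468566 to 49470136, plus strand, hg19), the ferritin light chain that stores iron, stood at 6977, 7131 and 7361 CPM under DMSO and at 13439.9, 12816 and 12675 CPM under BaP. Each group spanned a narrow range and the groups lay far apart, with a log2 fold change of 0.86 (SE 0.01, limma-voom adjusted p = 1.62e-34), or 1.81-fold. FTH1, the ferritin heavy chain, stood at 545, 537 and 539 CPM under DMSO and at 688, 767 and 763 CPM under BaP, without overlap (log2 fold change 0.44, SE 0.06, limma-voom adjusted p = 1.17e-06).

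The thioredoxin system reduces protein disulfides with NADPH. TXNRD1, thioredoxin reductase (chromosome 12, 104609557 to 104744085, plus strand, hg19), stood at 183, 168 and 185 CPM under DMSO and at 256, 249 and 233 CPM under BaP. The log2 fold change was 0.46 (SE 0.08, limma-voom adjusted p = 0.000387). TXN, thioredoxin, rose from 3597, 3642 and 3582 CPM to 4289, 4157 and 4045 CPM, a log2 fold change of 0.20 (SE 0.02, limma-voom adjusted p = 4.03e-08). In both genes every BaP well was above every DMSO well. The peroxidase PRDX1 was higher by only 0.13 (SE 0.03, limma-voom adjusted p = 0.0301), and its call held in 1 of the 6 sets with a well left out, that without DMSO replicate 3. SQSTM1, the autophagy receptor p62 that also holds KEAP1, stood at 26.3, 21.7 and 24.1 CPM under DMSO and at 38.4, 53.3 and 51.1 CPM under BaP. The spread under BaP was wide, yet no well overlapped, and the log2 fold change was 0.96 (SE 0.18, limma-voom adjusted p = 0.00141). GPX2, a glutathione peroxidase, was at 5.13 to 8.29 CPM under DMSO and 12.6 to 17.3 CPM under BaP, without overlap, and did not pass (limma-voom adjusted p = 0.0997).

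Among conjugation, hydrolysis and efflux genes 1 of 16 tested rose. This was MGST1, a membrane glutathione transferase, at 1462 to 1619 CPM under DMSO and 1809 to 1890.0 CPM under BaP (log2 fold change 0.29, SE 0.04, limma-voom adjusted p = 2.05e-06). Of 8 metallothionein and zinc export genes 1 rose, MT1X, which binds zinc and other metals, by 0.26 (SE 0.03, limma-voom adjusted p = 3.32e-06). The other genes among the 12 with the smallest adjusted p-values belonged to no list. S100A6, a calcium-binding protein, rose by 0.31 (SE 0.02), B2M, the light chain of MHC class I, by 0.27 (SE 0.02), FXYD3, a regulator of the sodium pump, by 0.68 (SE 0.06) and IFI30, a lysosomal thiol reductase, by 0.58 (SE 0.07). FXYD3 stood at 449.7, 472 and 563 CPM under DMSO and at 784, 777 and 797 CPM under BaP, and IFI30 at 221, 211 and 248 CPM and at 338, 329.6 and 349 CPM. That no BaP well overlapped a DMSO well was a condition for being among these 12.

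The growth and early response lists each held 1 called gene. Of 12 tested immediate early genes, which are switched on within minutes of a stimulus, all 12 were above 0 with a median log2 fold change of 0.66. Beside them, 5564 of 11126 genes tested were above 0, with a median of 0.00 and 0.863% called higher. Of the 12, only 1 passed the test, and some rested on few UMIs. The highest count in any of the 6 wells was 5 for ATF3 and KLF4, 8 for JUN, JUNB and JUND and 59 for EGR1. EGR1, a zinc finger factor, stood at 16, 19.7 and 14.3 CPM under DMSO and at 34, 44.9 and 37 CPM under BaP (log2 fold change 1.18, SE 0.21, limma-voom adjusted p = 0.000379). No well overlapped, and the call held without any 1 well. AREG, the ERBB ligand amphiregulin, was the 1 of 14 ERK feedback and ERBB ligand genes that rose, from 138, 128 and 145 CPM to 196, 207 and 201 CPM (log2 fold change 0.55, SE 0.09, limma-voom adjusted p = 9.62e-05). IL1A, an alarmin cytokine, was the 1 of 12 chemokine, cytokine and NF-kB feedback genes that rose, from 17.3, 13.8 and 9.04 CPM to 26.6, 34.3 and 24.4 CPM (log2 fold change 1.08, SE 0.24, limma-voom adjusted p = 0.00939). This call was lost without DMSO replicate 3 or BaP replicate 2, with adjusted p up to 0.131.

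Of 17 tested interferon-stimulated genes 2 rose and 14 were above 0, with a median of 0.34, beside 0.863% called higher, 5564 of 11126 above 0 and a median of 0.00 over all genes tested. IFIT2, which binds foreign RNA, stood at 19.2, 23.7 and 19.6 CPM under DMSO and at 36.9, 37.3 and 40.1 CPM under BaP (log2 fold change 0.86, SE 0.19, limma-voom adjusted p = 0.00732). IFIT3 of the same family had a log2 fold change of 0.83 (SE 0.21, limma-voom adjusted p = 0.0321). In neither did the wells overlap. IFIT2 was lost without DMSO replicate 1 or 3, with adjusted p up to 0.0635, and IFIT3 without DMSO replicate 1 or 3 or BaP replicate 1 or 3, with adjusted p up to 0.273.

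Genes of the DNA damage response stood close to all genes. None of 22 tested p53 targets and none of 24 excision repair and bypass synthesis genes passed, and their medians were 0.08 and 0.04. CDKN1A, the p53-driven cell cycle inhibitor, had a log2 fold change of 0.39 (limma-voom adjusted p = 0.699), MDM2, the p53 ligase, of -0.04 (limma-voom adjusted p = 0.97) and XPC, the damage sensor of excision repair, of 0.26 (limma-voom adjusted p = 0.796). None of the 29 tested genes of the PI3K, AKT and mTOR pathway passed either, with a median of -0.22 and 11 of 29 above 0. None passed among 20 ATF4 and ER stress genes, 15 basal cell genes or 7 squamous differentiation genes.

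**Figure D2:**
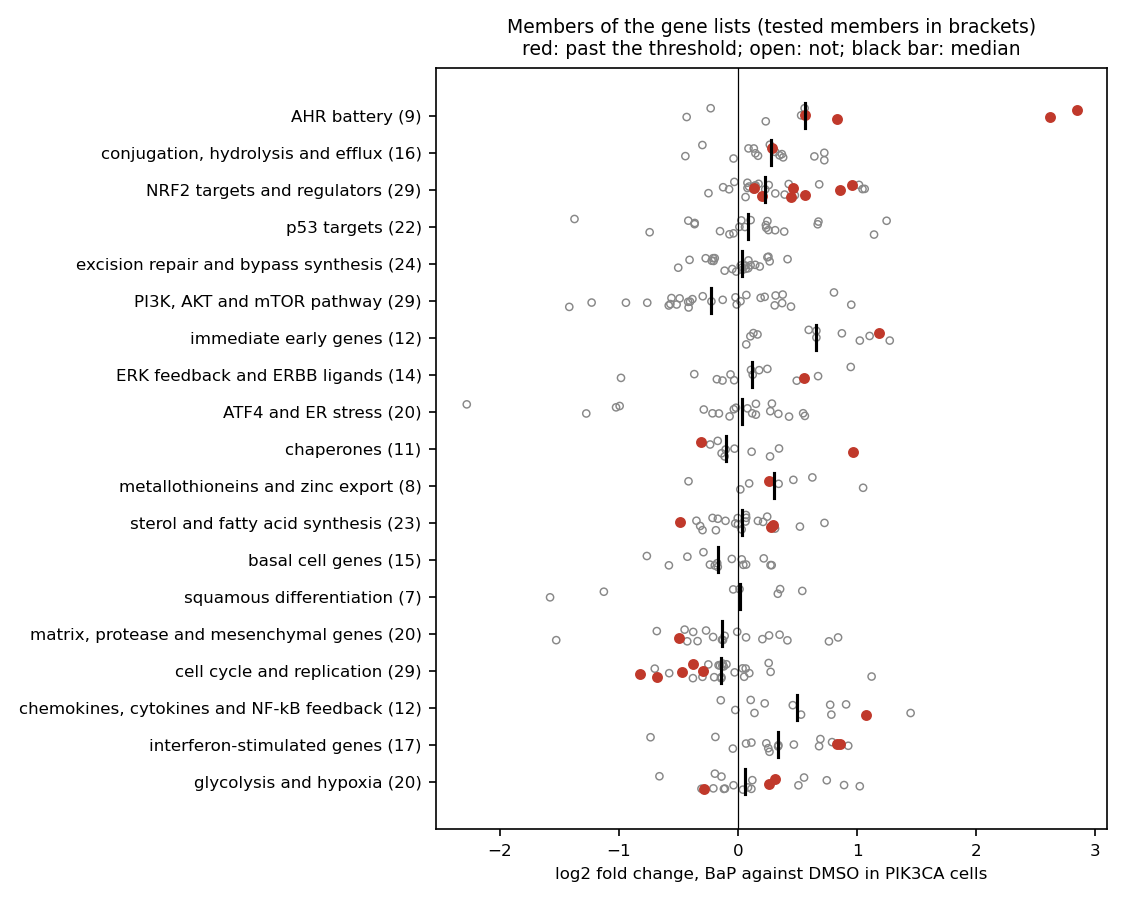
Each point is a tested member of a gene list, placed by its log2 fold change of BaP against DMSO in PIK3CA cells, with members past the threshold filled in red, others open, and a black bar at the list's median. The 2 far right points are CYP1A1 and CYP1B1, the 7 called NRF2 genes lie to the right of 0, and the 5 called cell cycle genes lie to its left.

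Calls among genes of cell division were all downward. Of 29 tested cell cycle and replication genes 5 fell and none rose, with a median log2 fold change of -0.14 and 7 above 0. Over all genes tested 0.306% were called lower, 5564 of 11126 were above 0 and the median was 0.00. CENPF, a kinetochore protein, stood at 352, 388 and 373 CPM under DMSO and at 285, 305 and 269 CPM under BaP. No well overlapped, and the log2 fold change was -0.38 (SE 0.07, limma-voom adjusted p = 0.00086). CCNA2, cyclin A, stood at 51.9, 38.8 and 56.5 CPM under DMSO and at 26.6, 28.2 and 26.7 CPM under BaP (log2 fold change -0.82, SE 0.18, limma-voom adjusted p = 0.00747). The DMSO wells spread widely and the BaP wells hardly at all. The helicase subunit MCM6 fell by 0.68 (SE 0.16), the proliferation marker MKI67 by 0.47 (SE 0.12) and the topoisomerase TOP2A by 0.29 (SE 0.07). The call of CENPF held without any 1 well. That of CCNA2 was lost without DMSO replicate 3 or BaP replicate 1 (adjusted p up to 0.0757), and that of MCM6 without DMSO replicate 1 or BaP replicate 1 or 3 (up to 0.16). MKI67 was lost without DMSO replicate 1 or 2 or BaP replicate 1 or 2 (up to 0.2), and TOP2A without DMSO replicate 1 or 2 or BaP replicate 1 or 3 (up to 0.277).

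TUBA1B, an alpha tubulin, had the smallest adjusted p among the genes that fell. It stood at 3407, 3422 and 3334 CPM under DMSO and at 2787, 2734 and 2545 CPM under BaP (log2 fold change -0.34, SE 0.03, limma-voom adjusted p = 1.47e-11). TUBA1C (-0.37, SE 0.06), the beta tubulin TUBB (-0.26, SE 0.04) and ACTB, beta actin (-0.30, SE 0.05), also fell. They were chosen among called genes without overlap of wells. The other abundant actin gene, ACTG1, had a log2 fold change of -0.03 (limma-voom adjusted p = 0.942). CAV1, the coat protein of caveolae, was the 1 of 20 matrix, protease and mesenchymal genes that changed. It stood at 700.2, 678 and 728 CPM under DMSO and at 535, 467 and 499 CPM under BaP, a log2 fold change of -0.49 (SE 0.06, limma-voom adjusted p = 2.07e-07). PPP1CB, a phosphatase catalytic subunit, fell by 0.63 (SE 0.11) and C6orf62, a gene of little known function, by 0.81 (SE 0.13). Tubulin, actin, ferritin, glycolytic and ribosomal protein genes have near-identical copies, so their levels are uncertain where the counting could split reads among them, RPL5 (-0.17, SE 0.03) included.

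**Figure D3:**
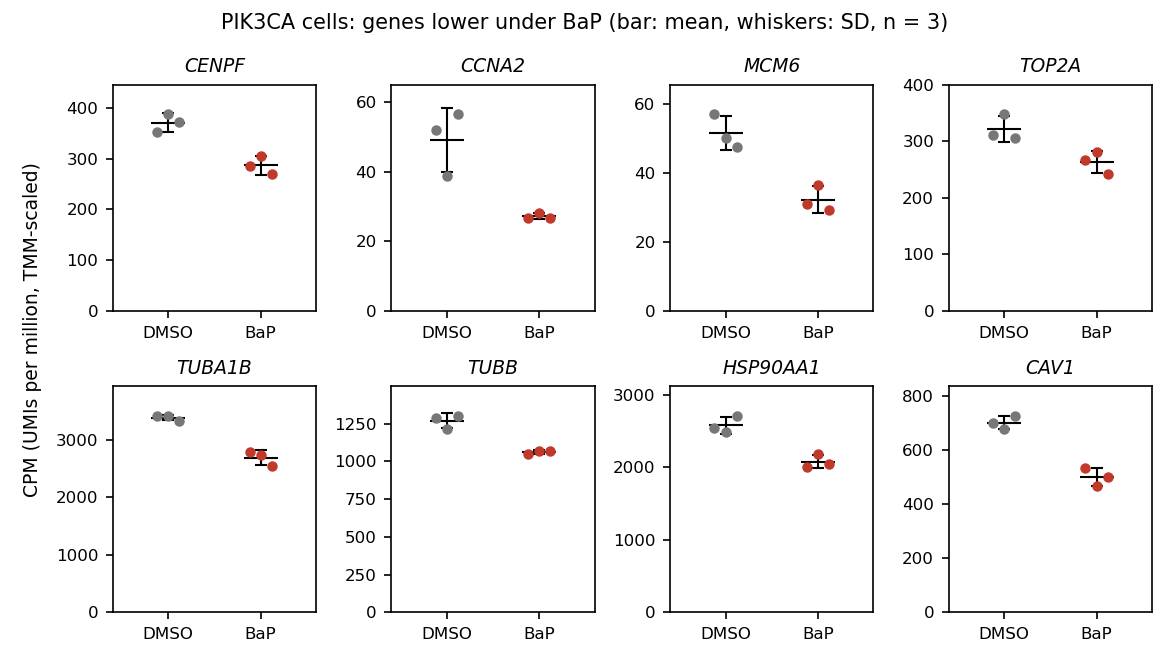
Level in each well (CPM, linear axis from 0) of 8 genes that fell under BaP in PIK3CA cells, with the 3 DMSO wells grey and the 3 BaP wells red, the bar at the mean and whiskers of 1 SD. All BaP wells lie below all DMSO wells in each of the 8 genes, by the widest margin for CCNA2 in proportion to its level.

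Metabolic and chaperone lists held genes that moved in both directions. Of 20 glycolysis and hypoxia genes 2 rose and 1 fell. The glycolytic enzymes ENO1, from 2139 to 2143 CPM under DMSO to 2642 to 2665 CPM under BaP, and PGK1, from 496 to 527 CPM to 602 to 627 CPM, rose by 0.31 (SE 0.03) and 0.26 (SE 0.06). LDHA, lactate dehydrogenase, fell from 1674 to 1786 CPM to 1355 to 1447 CPM, by 0.29 (SE 0.04). Of 23 sterol and fatty acid genes 2 rose and 1 fell. The isoprenoid enzymes IDI1 and FDPS rose by 0.29 (SE 0.05) and 0.27 (SE 0.06), while SCD, the stearoyl-CoA desaturase, fell from 436, 466 and 420.4 CPM to 319.8, 318 and 310.0 CPM, a log2 fold change of -0.48 (SE 0.06, limma-voom adjusted p = 4.18e-06). FDPS was lost without DMSO replicate 3 or BaP replicate 1, with adjusted p up to 0.0619. Its pseudogene FDPSP2 was called higher in all 6 sets with a well left out (log2 fold change 1.46 to 1.78). The level of FDPS is uncertain where the counting could split reads between the 2. Of 11 chaperones DNAJB1, a heat shock co-chaperone, rose by 0.96 (SE 0.20, limma-voom adjusted p = 0.00519) and HSP90AA1, the chaperone that also holds AHR in the cytosol, fell from 2482 to 2713 CPM to 2007 to 2182 CPM (-0.31, SE 0.03, limma-voom adjusted p = 4.74e-08). DNAJB1 was lost without DMSO replicate 3 or BaP replicate 2, with adjusted p up to 0.0896.

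The response was set against that of GFP, NRF2, NRG1 and FAT1 cells, which had BaP and DMSO replicates numbered 1 to 3 and share no wells with PIK3CA cells. Of the 96 higher genes, 92 were above 0 in GFP cells, 92 in NRF2 cells, 90 in NRG1 cells and 90 in FAT1 cells, where 49.2% to 52.0% of all genes were. All 34 lower genes were below 0 in GFP, NRG1 and FAT1 cells, and 33 in NRF2 cells. In all 4 populations at once 81 of the 96 and 33 of the 34 kept their direction, and none was opposite in all 4. In HcRed cells, the control for overexpression, 94 of the 96 were above 0, but only 28 of the 34 lower genes were below 0. The labels of 2 of the 3 HcRed BaP wells carry the numbers 31 and 32, and these were summed into 1 replicate. DMSO and BaP lay in rows A and E for PIK3CA, GFP and HcRed cells and in rows B and F for NRF2, NRG1 and FAT1 cells, so that within each population chemical and row cannot be told apart.

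CYP1A1 in the BaP wells ranged from 10.5 to 18.02 CPM in PIK3CA cells and from 14.1 to 21.95 CPM in NRG1 cells, which overlapped. It ranged from 33.4 to 48.7 CPM in GFP cells, 45.4 to 73.5 CPM in NRF2 cells and 87.2 to 96.3 CPM in FAT1 cells, while no DMSO well of these 5 populations passed 4.02 CPM. The log2 fold changes were 2.64 in PIK3CA cells, 3.93 in NRG1 cells, 4.47 in NRF2 cells, 4.54 in GFP cells and 6.11 in FAT1 cells. CYP1B1 in the BaP wells ranged from 32.2 to 47.0 CPM in PIK3CA cells, below every BaP well of the other 4 populations, of which NRF2 cells came nearest at 54.5 to 74.1 CPM. Its log2 fold change was 2.85 in PIK3CA cells and 3.15 to 4.28 in those 4. In HcRed cells the log2 fold changes were 3.68 (SE 0.55) for CYP1A1 and 2.76 for CYP1B1, the latter below that of PIK3CA cells.

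These differences from single populations were not tested one by one, only against the mean of GFP, NRF2, NRG1 and FAT1 cells. Across 11306 genes, the BaP response of PIK3CA cells minus the mean response of the other 4 populations passed the threshold for 0 genes (0.0%), with 637 (5.63%) at an unadjusted p under 0.05. DESeq2 also called 0 (267 unadjusted), and edgeR called 1 (606 unadjusted), RPL28, the gene of a ribosomal protein (0.43, adjusted p = 0.0273). The difference was -2.12 for CYP1A1 (SE 0.62, limma-voom adjusted p = 0.549), -0.65 for CYP1B1 (SE 0.36, limma-voom adjusted p = 0.912) and -0.55 for TIPARP (SE 0.25, limma-voom adjusted p = 0.839). NQO1 (-0.41, SE 0.10, limma-voom adjusted p = 0.116), TXNRD1 (-0.41, SE 0.09, limma-voom adjusted p = 0.116), AREG (-0.51, SE 0.12, limma-voom adjusted p = 0.136) and FTL (-0.15, SE 0.03, limma-voom adjusted p = 0.0944) had smaller errors and did not pass in this fit. On library totals alone FTL did (adjusted p = 3.77e-05). The median difference was -0.41 over 11 tested AHR battery genes and -0.11 over 29 NRF2 genes, of which 3 and 6 were above 0, beside 0.01 over all genes. Without PIK3CA BaP replicate 1 FTL passed (-0.17, adjusted p = 0.0161), and without PIK3CA DMSO replicate 2 the nuclear RNA MALAT1 did (0.26, adjusted p = 7.4e-05).

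**Figure D4:**
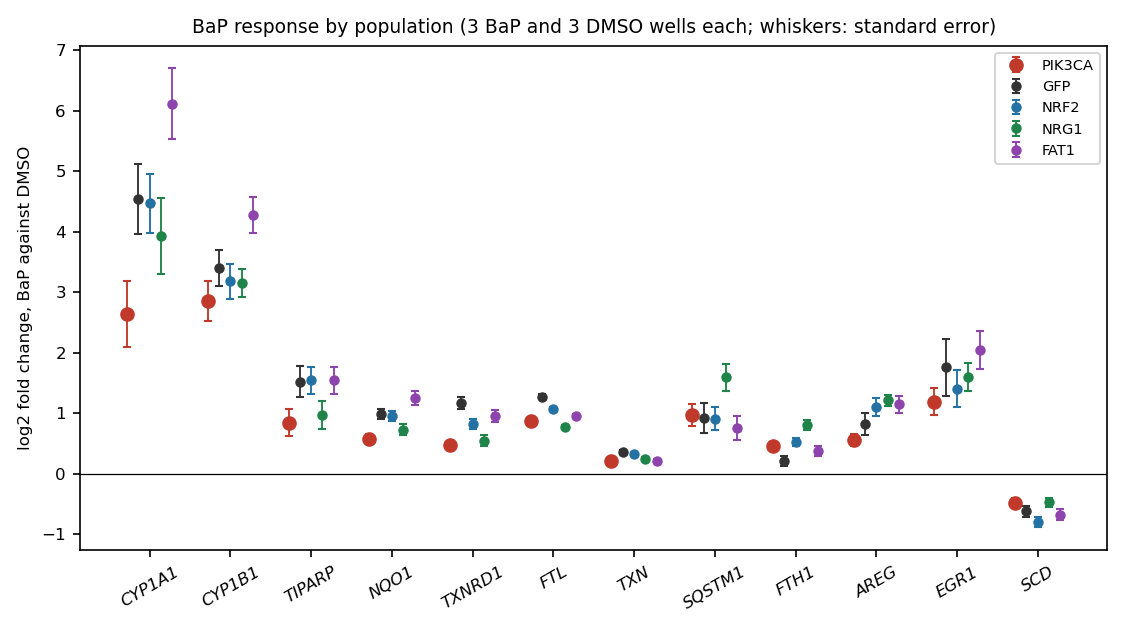
Log2 fold change of BaP against DMSO (y axis) of 12 genes in 5 populations, each from 3 BaP and 3 DMSO wells, with whiskers of 1 standard error and PIK3CA cells as the larger red points. PIK3CA cells have the lowest point for CYP1A1, CYP1B1, TIPARP, NQO1, TXNRD1, AREG and EGR1, but not for FTL, SQSTM1 or FTH1, and HcRed cells are not plotted.

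BaP was set beside the other chemicals within PIK3CA cells, at doses that differ (173 µM BaP, 24 µg/ml CSC and 490 µM NNK). The 3 comparisons with DMSO share its 3 wells. The BaP, CSC and NNK wells lay in plate rows E, C and G, so that chemical and row cannot be told apart here either. The CSC barcodes held 1 G or C base and the BaP barcodes 5, which also cannot be told apart from the chemical. The NNK wells held 1015082 to 1123119 UMIs each, fewer than the 1251909 to 1397605 of the BaP wells. CYP1B1 had a log2 fold change against DMSO of 2.84 under BaP, 2.93 (SE 0.32) under CSC and 1.90 (SE 0.36) under NNK, and CYP1A1 of 2.62, 2.30 (SE 0.50) and 1.88 (SE 0.52). FTL had 0.86 under BaP, 1.32 (SE 0.02) under CSC and 0.28 (SE 0.02) under NNK, and NQO1 had 0.56, 1.13 (SE 0.07) and 0.19 (SE 0.09).

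**Figure D5:**
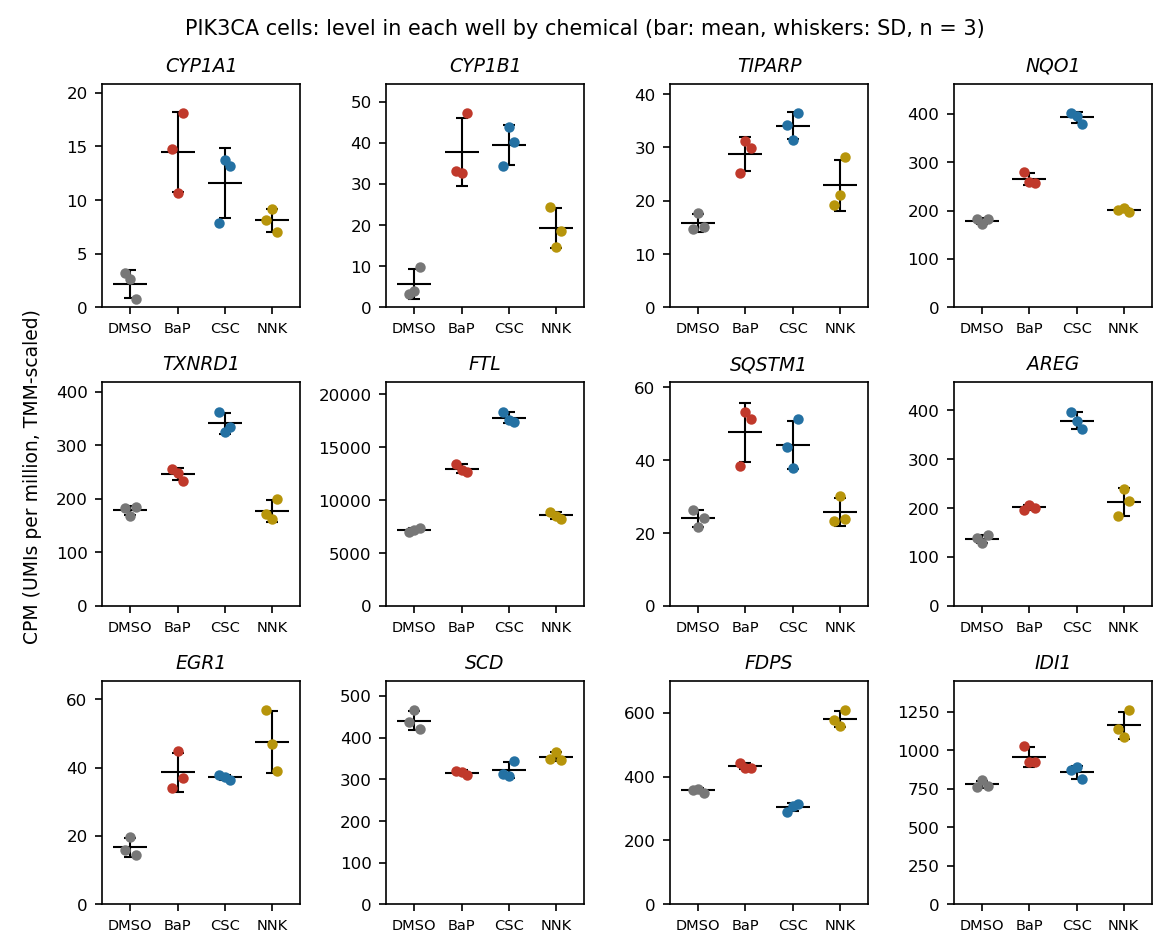
Level in each of the 12 PIK3CA wells (CPM, linear axis from 0) of 12 genes under DMSO (grey), BaP (red), CSC (blue) and NNK (yellow), with the bar at the mean and whiskers of 1 SD, n = 3. CYP1A1 and CYP1B1 are similar under BaP and CSC, the FTL, TXNRD1 and NQO1 levels under BaP lie between those of DMSO and CSC, and FDPS is highest under NNK.

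Directly between BaP and CSC, 117 of 11135 genes differed (1.05%), 67 higher under BaP (0.602%) and 50 lower (0.449%). At p under 0.05 before adjustment the share was 8.72%. Without CSC replicate 2 the count was 70. Of the NRF2 list, 8 of 30 tested NRF2 genes were lower under BaP and none higher. FTL was at 17363 to 18358 CPM under CSC, above all BaP wells (log2 difference -0.45, SE 0.01, limma-voom adjusted p = 7.71e-32), as were TXN (-0.28, SE 0.02), FTH1 (-0.57, SE 0.05), TXNRD1 (-0.47, SE 0.07) and NQO1 (-0.57, SE 0.07). AREG stood at 397, 378 and 362 CPM under CSC, without overlap with its BaP wells (-0.91, SE 0.07, limma-voom adjusted p = 4.01e-12). TIMP1, an inhibitor of matrix proteases, was lower under BaP than under CSC by 0.50 on the log2 scale (SE 0.04, limma-voom adjusted p = 7.87e-13) and did not differ from DMSO past the threshold (-0.01, SE 0.04). HSP90AA1 was also lower under BaP (-0.27, SE 0.03).

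None of the 3 leading AHR genes passed the test between BaP and CSC. The log2 difference was -0.09 for CYP1B1 (SE 0.17, limma-voom adjusted p = 0.93), 0.32 for CYP1A1 (SE 0.28, limma-voom adjusted p = 0.797) and -0.24 for TIPARP (SE 0.18, limma-voom adjusted p = 0.749). Genes higher under BaP than CSC with the smallest adjusted p were B2M (0.21, SE 0.02), the histone HIST1H4C (0.29, SE 0.03), the chromatin protein HMGB2 (0.39, SE 0.04), FDPS (0.51, SE 0.06), the actin-binding TMSB4X (0.21, SE 0.03) and ENO1 (0.18, SE 0.03). All 3 called genes of 17 interferon-stimulated genes were higher under BaP, IFIT2 by 1.29 (SE 0.20), from 13.9 to 16.4 CPM under CSC, with the DMSO wells between. IFIT2 held in all 6 sets with a well left out. The other calls were weaker: IFIT1 held in 4 of 6 (limma-voom adjusted p up to 0.203) and IFIT3 in 3 (up to 0.199). HMGB2 stood at 1161 to 1331 CPM under CSC, below all BaP and DMSO wells. Its difference between BaP and DMSO (-0.20, SE 0.05, limma-voom adjusted p = 0.0163) came with overlapping wells and was lost without DMSO replicate 1 or 2 or BaP replicate 3, with adjusted p up to 0.271.

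Between BaP and NNK, whose barcodes had equal numbers of G or C bases, 48 of 10809 genes differed (0.444%), 13 higher under BaP (0.12%) and 35 lower (0.324%). At p under 0.05 before adjustment the share was 7.49%. Without a filter on low counts the split was 21 higher and 30 lower. The count was 27 without BaP replicate 2, and 23, 31 and 74 without NNK replicates 1, 2 and 3. FTL stood at 8908, 8521 and 8218 CPM under NNK, below all BaP wells (log2 difference 0.57, SE 0.02, limma-voom adjusted p = 5.16e-26), and FTH1 at 497, 484 and 446 CPM (0.61, SE 0.07, limma-voom adjusted p = 1.28e-08). Of 29 tested NRF2 genes 5 were higher under BaP and none lower, but FTL and FTH1 alone held in all 6 sets with a well left out. NQO1 held in 1 of 6 (adjusted p up to 0.202), SQSTM1 in 2 (up to 0.266) and TXNRD1 in 3 (up to 0.136). CYP1B1 stood at 24.3, 14.7 and 18.5 CPM under NNK, below all BaP wells and above all DMSO wells, and its difference from BaP was 0.94 (SE 0.23, limma-voom adjusted p = 0.0314). That call held in 1 of 6 sets with a well left out, the one without BaP replicate 2, and reached an adjusted p of 0.362 without NNK replicate 2. CYP1A1 differed by 0.74 (SE 0.33, limma-voom adjusted p = 0.59). S100A6 (0.19, SE 0.03), FXYD3 (0.32, SE 0.06), RPL28 (0.57, SE 0.09) and MALAT1 (0.10, SE 0.02) were also higher under BaP, the last no longer so without NNK replicate 1 (adjusted p = 0.066).

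The sterol list had the opposite direction of calls. Of 22 tested sterol and fatty acid genes 5 were lower under BaP than NNK and none higher, with a median difference of -0.32 and 2 above 0. Over all genes of that comparison 0.324% were called lower, 5423 of 10809 were above 0 and the median was 0.00. FDPS was at 577, 558 and 608 CPM under NNK (-0.46, SE 0.07, limma-voom adjusted p = 2.61e-05), and MSMO1, another enzyme of the sterol pathway, at 907, 853 and 878 CPM (-0.40, SE 0.06, limma-voom adjusted p = 2.61e-05). Both were above their BaP wells, which were in turn above the DMSO wells. ENO1 (-0.33, SE 0.04), the calcium-binding protein S100A2 (-0.33, SE 0.04), TUBA1B (-0.31, SE 0.04) and RPL6, the gene of a ribosomal protein (-0.36, SE 0.04), were lower under BaP as well.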

How the data were processed

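The study measured AALE wells by 3′DGE. The deposited files held raw UMI counts per gene, not normalized. In the methods of the study, the authors were handed these counts ready-made, after BWA 0.7.10 had placed reads on RefSeq transcripts of hg19, and each UMI was counted once per gene and well. The study calls its replicates biological, and the sources used here do not say whether they were separate cultures. The p-values measure the spread between these wells. Groups came from the titles. All 23895 symbols were kept as listed.

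Genes with a mean count above 1 in the compared wells were tested with limma 3.58.1 (voom, TMM factors of edgeR 4.0.16, R 4.3.3), two-sided, with Benjamini-Hochberg adjustment over all genes tested. Fits used the 6 wells compared, or 30 wells of 5 populations for the difference of responses. Prior degrees of freedom were 33.8 to 50.7, beside 4 or 20 residual ones, so small p-values rest on variance shared between genes. Alternatives used edgeR's quasi-likelihood test, DESeq2 1.42.0, other scalings and filters, thinned counts, a replicate block and left-out wells. Scripts were tested on simulated data. Printed levels are TMM-scaled CPM over the 12 PIK3CA wells, or over the population fit where populations are compared. Positions are from GENCODE lifted to GRCh37 (hg19), and promoters from RefSeq.

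The members and gene lists were chosen with earlier results of these data known. Named genes were PIK3CA, CYP1A1, CYP1B1, the measured AHR battery genes (1 is not reported here), 12 genes per direction with the lowest adjusted p and no overlap of wells, called list members, and up to 6 genes per direction in the other comparisons. CDKN1A, MDM2, XPC, GPX2, ACTG1, FDPSP2 and the sparse immediate early genes were named beyond that rule. So were the cell type markers, and HMGB2 and TIMP1 against DMSO.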

Additional observations from a re-analysis of the deposited data

Results flagged for a closer look

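The flagged genes were 3, each called higher under BaP in PIK3CA cells, with every BaP well above every DMSO well. In another population each had every BaP well below every DMSO well. They are not a count over all genes tested, and these opposite moves were not tested pair by pair. Of all 11126 genes tested, 8.06% had every BaP well above and 6.99% every BaP well below every DMSO well in PIK3CA cells alone. IDI1 had a log2 fold change of 0.29 in PIK3CA cells and -0.13 in FAT1 cells, and MSMO1 had 0.25 and -0.16 in the same populations. MT1X had 0.26 in PIK3CA cells and -0.26 in NRF2 cells. Against the mean of the other 4 populations the differences were 0.21 (SE 0.07) for IDI1, 0.18 (SE 0.07) for MSMO1 and 0.17 (SE 0.05) for MT1X, with limma-voom adjusted p of 0.642, 0.748 and 0.513. The rise of MSMO1 in PIK3CA cells was lost without DMSO replicate 3 or BaP replicate 1 or 2, with adjusted p up to 0.113.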

How the results depend on the processing

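Of the calls between BaP and DMSO, 49 of 96 higher and 13 of 34 lower were kept in every set with a well left out. The same held for 49 of the 117 calls between BaP and CSC and 16 of the 48 between BaP and NNK. DESeq2 called 78 genes, of which 77 were among the 130, and gave no adjusted p for low genes such as CYP1A1 and CYP1B1. Against CSC DESeq2 called 53 genes in place of 117. PIK3CA wells of the same replicate number shared a plate column, 10, 11 or 12. Same-numbered BaP and DMSO wells correlated at only 0.01 to 0.03 after removal of group means, and not every well correlated best with its own number. Between BaP and NNK the same-numbered wells correlated at 0.02 to 0.05, each best with its own number. Whether the numbers pair the wells is thus not settled, and the fits reported do not pair them. The replicate block gave 219 genes against DMSO, 127 against NNK 111 against CSC and 12 for the difference of responses, among them FTL (adjusted p = 2.5e-06), AREG (0.0228), NQO1 (0.0269) and TXNRD1 (0.0269). For the difference of responses, 0 in the fit reported, edgeR gave 1 gene, library totals alone 2 and no filter on low counts 1. With a well left out, counts ran from 91 to 142 against DMSO, 0 to 1 for the difference, 70 to 102 against CSC and 23 to 74 against NNK. No named gene called in the fit reported reversed direction against DMSO under any alternative. Changes of sign in named genes that had not passed were not counted. Over the 57 named genes tested, called or not, 60 of 887 values lost the call. Genes not called in the fit reported could not lose one. Values with no adjusted p, such as those of CYP1A1 and CYP1B1 under DESeq2, were not counted as lost. The median of all genes shifted by -0.04 on library totals alone. At these depths a gene near 1 CPM rests on 1 or 2 UMIs per well, and intervals between wells of 1 plate row cover no row effect.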
